A study of Mus musculus with 15 samples.

Results

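The 10 leukotriene and prostaglandin pathway genes described here (Alox5, Alox5ap, Lta4h, Ltc4s, Ltb4r1, Alox12, Ptgs1, Ptgs2, Tbxas1 and Hpgds) were chosen by name, and all 10 were found by Ensembl identifier among the 55416 gene identifiers counted in mouse peripheral blood. Whole blood RNA of 15 wild-type C57BL/6 mice was sequenced, with 1 library per mouse and 5 mice per group. Per the labels, each mouse received 4MOSC1 cells, a mouse oral squamous cell carcinoma line, in the tongue, and tumors grew for 10 days. The untreated group had neither antibody nor surgery, while the early and late groups had 2 doses of αCTLA-4, an immune checkpoint antibody, and either an early or a late neck dissection (ND), the surgical removal of the cervical lymph nodes that drain the tongue. By the study's methods the mice were female and a few weeks old at implantation. All 3 groups shared strain and tumor line, no group had the antibody without planned surgery, and the sources used here place the blood sampling both before and after the late ND. The groups are therefore called untreated, early ND and late ND by their labels alone, and an effect of the antibody cannot be told apart from one of ND against untreated mice. Below, "after late ND" means in the late ND group. It does not state that the blood was drawn after that surgery. The design asks whether the timing of ND changes circulating gene expression after αCTLA-4.

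Leukotrienes and prostaglandins are lipid mediators made from arachidonic acid. Myeloid cells use 5-lipoxygenase (Alox5) and its activating protein (Alox5ap) to make leukotriene A4, from which Lta4h makes leukotriene B4, a neutrophil attractant sensed by Ltb4r1, and Ltc4s makes the cysteinyl leukotrienes. Platelets instead hold a 12-lipoxygenase (Alox12), and the cyclooxygenases Ptgs1 and Ptgs2 make prostaglandin H2, which Tbxas1 turns into thromboxane A2 and Hpgds into prostaglandin D2.

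Alox5 and Alox12 are the lipoxygenases among the members, so their upstream sequences are shown. The ratio of their counts separated the ND groups below, as did the ratios to Alox12 of 15.6% of all genes tested. Alox5 lay on the minus strand of chromosome 6 (GRCm39, 116387032 to 116438139) and Alox12 on the minus strand of chromosome 11 (70132283 to 70146221). The 225 bases that end 26 bases before each RefSeq start are given from RefSeq on GRCm38.p6, at chr6:116461204-116461428 and chr11:70255396-70255620, both 5′ to 3′ on the minus strand. Capitals mark the GC box, GGGCGG, the core letters read by Sp1-type factors:
Alox5: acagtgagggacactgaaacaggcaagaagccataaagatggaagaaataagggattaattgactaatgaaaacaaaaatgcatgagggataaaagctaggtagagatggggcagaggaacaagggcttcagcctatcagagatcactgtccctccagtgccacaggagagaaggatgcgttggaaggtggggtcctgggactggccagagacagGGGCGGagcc
Alox12: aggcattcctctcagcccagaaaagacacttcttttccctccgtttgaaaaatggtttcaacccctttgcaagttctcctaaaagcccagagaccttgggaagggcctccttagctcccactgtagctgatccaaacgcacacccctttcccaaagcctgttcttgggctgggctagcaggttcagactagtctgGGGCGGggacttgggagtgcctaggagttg

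Each of these windows held 1 GC box in the direction of the gene, starting 35 bases before the Alox5 start and 55 bases before that of Alox12. Over windows of that length, with both strands searched, GGGCGG was present in 29.18% of 32851 promoters and in 4 of the 9 members with an entry (Ptgs2, Alox5, Alox12 and Ltb4r1). The PU.1 core GAGGAA, read by a myeloid factor, was present in 20.84% of promoters and in 6 of the 9 members (Ptgs2, Hpgds, Alox5, Lta4h, Alox12 and Ltb4r1), and the GATA core AGATAA in 9.3% and in 0 of the 9. None of the 3 motifs contains another, and a match is a description of these letters only.

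The libraries held 5527108 to 7182346 gene counts after early ND, 7849602 to 13924361 after late ND and 5862888 to 10796099 in untreated mice. The 4 adult hemoglobin genes took 38.3% to 64.1% of gene counts after early ND, 14.9% to 29.3% after late ND and 31.6% to 61.7% in untreated mice. Counts of the 18S ribosomal gene Rn18s-rs5 were scarce in late ND mice 2 and 3 and in untreated mouse 2, at 313 to 766 CPM (counts scaled to a common library total), while the other 12 mice had 13402 or more. Without late ND mice 2 and 3, which also left fewer late ND mice, the genes called between late and early ND fell from 663 to 4. With any 1 ND mouse left out they ran from 145 to 1610. The values below are CPM after trimmed mean of M-values (TMM) scaling, which sets the bulk of genes level across libraries. With library totals in place of TMM, the median over all genes of the log2 fold change went from 0.01 to 0.86 for late against early ND and from 0.00 to 0.91 for late ND against untreated mice. Markers of blood cells were present in all 3 groups, among them S100a8 of neutrophils (465 to 3767 CPM over the libraries) and Pf4 of platelets (323 to 690 CPM).

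Compared per kilobase of the canonical transcript, the levels of the 10 members spanned from Alox5ap, at 134 ± 41.7 CPM per kb (SD, n = 15), to Ptgs2, at 0.218 ± 0.128 (SD, n = 15). Alox12 came next to Alox5ap with 95.1 CPM per kb, then Alox5 with 18.8, Tbxas1 with 16.4, Lta4h with 13.5 and Ltb4r1 with 12.02. Ptgs1 followed at 6.45 CPM per kb, with Hpgds at 0.43 and Ltc4s at 0.337 near the bottom. Several neighbours in this order were not separable, as Alox5ap exceeded Alox12 in 10 of 15 libraries (5 of 5 after late ND, 1 of 5 after early ND), Alox5 exceeded Tbxas1 in 9 of 15 (5 of 5 after late ND, 1 of 5 after early ND) and Lta4h exceeded Ltb4r1 in 9 of 15 (1 of 5 after late ND, 4 of 5 after early ND). Ltb4r1 exceeded Ptgs1 in 5 of 5 late ND, 5 of 5 untreated and 2 of 5 early ND mice. By contrast Alox12 exceeded Alox5, and Ptgs1 exceeded Hpgds, in 15 of 15. With all annotated exon bases as the length, Tbxas1 and Lta4h dropped to 2.63 and 2.53 CPM per kb, below Ltb4r1 and Ptgs1, so their place depends on the transcripts assumed.

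**Figure D1:**
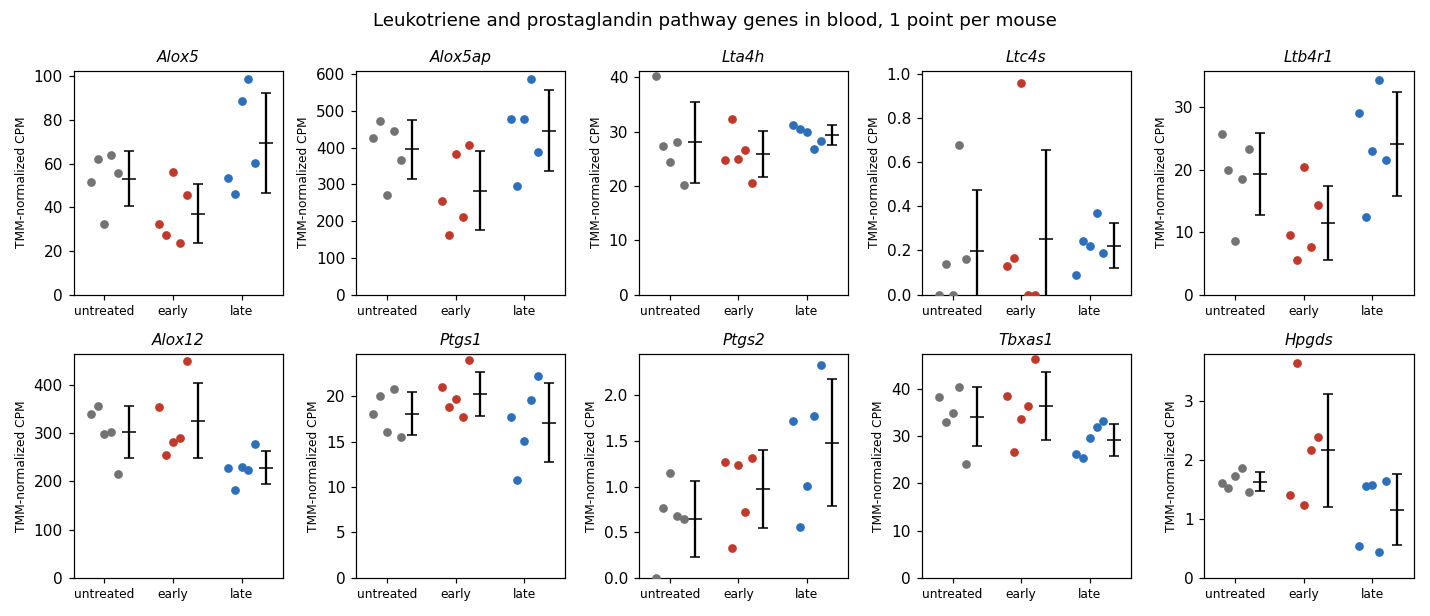
TMM-normalized CPM of the 10 members (vertical axes, each from 0) in untreated, early ND and late ND blood, 1 point per mouse in replicate order, with the group mean and SD beside the points (bars are cut at 0). Alox5, Alox5ap and Ltb4r1 had their highest group mean after late ND and their lowest after early ND, Alox12 had its lowest after late ND, and Ltc4s stayed under 1 CPM.

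The leukotriene genes Alox5, Alox5ap and Ltb4r1 were measured at 1.59 to 2.07 times their early ND level after late ND, and Alox12 at 0.709 times, but none of the 9 members tested passed the adjusted threshold. Alox5, the enzyme of the first step, had 32.4, 27.3, 56.2, 23.8 and 45.6 CPM in the 5 early ND mice. After late ND it had 53.5, 46.0, 88.7, 98.7 and 60.1 CPM, and in untreated mice 51.5, 62.3, 32.2, 63.7 and 55.6. The late ND mice 3, 4 and 5 lay above every early ND mouse, and early ND mouse 3 lay within the late ND range, so the groups overlapped. The log2 fold change, late against early ND, was 0.91 ± 0.27 (SE) with an adjusted p of 0.0648 (edgeR quasi-likelihood test, Benjamini-Hochberg over 13315 genes). Without early ND mouse 3 or without late ND mouse 2, Alox5 and Ltb4r1 passed, beside 11.8% and 6.17% of all genes called in either direction in those fits. In whole blood, fewer cells of a type and less RNA per cell cannot be told apart.

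Alox5ap, the membrane protein that hands arachidonic acid to Alox5, was the member with the most counts. It had 254, 162, 382, 212 and 407 CPM after early ND and 479, 294, 479, 589 and 389 after late ND, against 271 to 473 in untreated mice (median 426). Late ND mice 1, 3 and 4 were above all early ND mice, while late ND mouse 2 was below 2 of them. The log2 fold change was 0.67 ± 0.27 (SE), with an adjusted p of 0.150 (edgeR). Gm19719, a long non-coding RNA on the opposite strand, shares 4.89% of the exon bases of Alox5ap, and since the strand setting of the counting is not given in the sources used here, reads of the pair may be mixed.

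Ltb4r1, the high-affinity leukotriene B4 receptor, had 9.55, 5.47, 20.4, 7.58 and 14.4 CPM after early ND and 29.1, 12.5, 23.0, 34.4 and 21.6 after late ND. In untreated mice it had 25.7, 20.04, 8.63, 18.6 and 23.4 CPM. All late ND mice but mouse 2 were above every early ND mouse. Its log2 fold change of 1.05 ± 0.34 (SE) was the highest of the 9 members, with an adjusted p of 0.0841 (edgeR).

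Lta4h, the hydrolase that makes leukotriene B4, was the flattest member of this arm. It lay at 20.5 to 32.3 CPM after early ND (median 25.04), at 26.8 to 31.2 after late ND (median 30.0) and at 20.2 to 40.2 in untreated mice (median 27.3). The ranges were nested, and the log2 fold change of 0.21 ± 0.12 (SE) did not pass (edgeR, adjusted p = 0.298). For Ltc4s, the synthase of leukotriene C4, 36 reads were counted in all 15 libraries together, with 0 to 7 in each and none in 4 of them. A count of 0 allowed up to 0.655 to 1.21 CPM in those 4 libraries (3 counts each, counting error only, as the reads carry no molecular identifiers), so Ltc4s could not be compared at this depth. A further limit is that 25.8% of its exon bases lie opposite the non-coding gene Gm26542.

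Alox12, the platelet lipoxygenase, had 355, 255, 281, 289 and 450 CPM after early ND and 227, 181, 230, 223 and 278 after late ND. In untreated mice it had 339, 355, 299, 303 and 214 CPM. All late ND mice but mouse 5 were below every early ND mouse. The log2 fold change was -0.50 ± 0.18 (SE) under TMM with an adjusted p of 0.114 (edgeR), and 0.36 with library totals, which lay 0.50 below the shift of all genes, so that its sign depends on the scaling.

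Tbxas1, the thromboxane synthase, and Ptgs1, the cyclooxygenase that platelets carry, were closer between groups. Tbxas1 had 26.7 to 46.3 CPM after early ND (median 36.4), 25.3 to 33.1 after late ND (median 29.6) and 24.2 to 40.4 in untreated mice (median 34.8). Ptgs1 had 17.7 to 24.0 CPM after early ND (median 19.7), 10.8 to 22.3 after late ND (median 17.7) and 15.5 to 20.8 in untreated mice (median 18.1). Their groups overlapped widely, and their log2 fold changes of -0.29 ± 0.14 (SE) and -0.23 ± 0.17 (SE) under TMM had adjusted p-values of 0.246 and 0.457 (edgeR), with the sign turned by library totals.

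Ptgs2, the inducible cyclooxygenase, and Hpgds, the hematopoietic prostaglandin D synthase, were near the limit of detection. Ptgs2 had 0 to 11 counts in each untreated library, 2 to 10 after early ND and 14 to 37 after late ND, which came to means of 0.647, 0.974 and 1.48 CPM. Hpgds had 4 to 22 counts in each untreated library, 6 to 22 after early ND and 6 to 39 after late ND, or means of 1.64, 2.17 and 1.15 CPM. Neither separated the groups: the log2 fold changes, late against early ND, were 0.54 ± 0.46 (SE) for Ptgs2 and -0.80 ± 0.43 (SE) for Hpgds, with adjusted p-values of 0.520 and 0.290 (edgeR). Under library totals the Hpgds value turned positive.

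Over the members, 0 of the 9 tested were called between late and early ND, where 2.50% of all genes were called higher and 2.48% lower. At an unadjusted p under 0.05, 3 of the 9 were higher (Alox5, Ltb4r1 and Alox5ap), beside 14.4% of all genes, and 1 was lower (Alox12), beside 9.33%. None of the 9 had groups that did not overlap, beside 5.91% of all genes. Their median log2 fold change was 0.21, against 0.01 over all genes. DESeq2 called 3 of the 9, namely Alox5 (adjusted p = 0.0217), Ltb4r1 (0.0330) and Alox12 (0.0398), beside 10.8% of all genes called in either direction by that test.

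**Figure D2:**
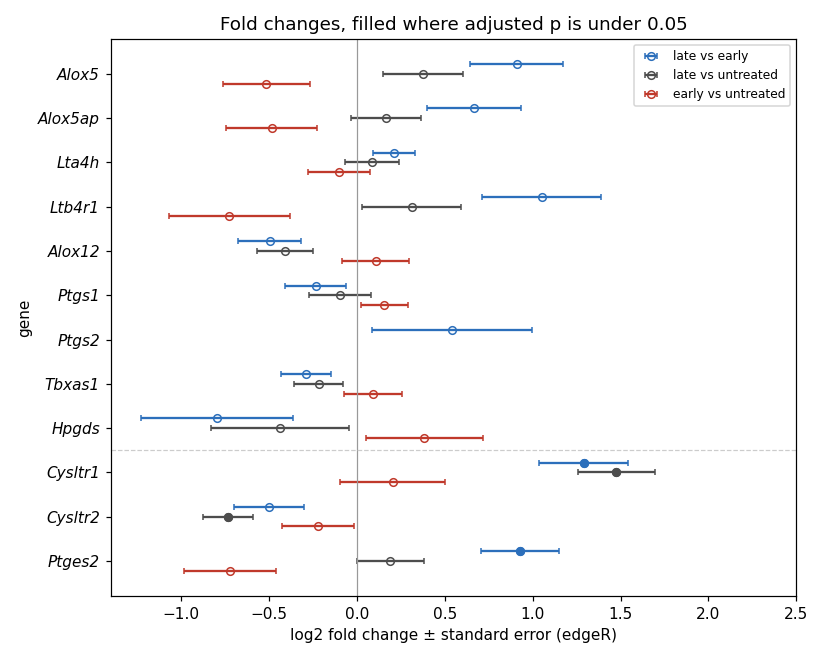
Log2 fold change (horizontal axis) with its standard error for the 9 members tested and, under the dashed line, Cysltr1, Cysltr2 and Ptges2, in 3 comparisons (colors). Points are filled where the edgeR adjusted p was under 0.05, which held for no member, and the values below 0 for Alox12, Ptgs1, Tbxas1 and Hpgds in the 2 late ND comparisons, and for Cysltr2 there, turn positive when library totals replace TMM.

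Against untreated mice, no member passed in either ND group. For late ND, 0 of the 8 tested were called, beside 0.989% of genes higher and 2.01% lower. At an unadjusted p under 0.05, 0 of the 8 were higher, beside 8.69% of genes, and Alox12 alone was lower, beside 8.28%, with a log2 fold change of -0.41 ± 0.16 (SE) under TMM and 0.51 under library totals (edgeR adjusted p = 0.207 with TMM). None had groups that did not overlap, beside 5.48% of genes. For early ND, 0 of the 8 passed, beside 0.00% of genes higher and 0.00% lower by edgeR, and by DESeq2 too no gene passed. The count at an unadjusted p under 0.05 was 0 of the 8 in either direction, beside 2.11% of genes higher and 2.33% lower, and 0 had groups that did not overlap, beside 0.576%. The widest early ND difference was that of Ltb4r1, at -0.73 ± 0.35 (SE), followed by Alox5 at -0.52 ± 0.25 (SE) and Alox5ap at -0.49 ± 0.26 (SE), each with an adjusted p of 0.938 (edgeR). The late and early ND comparisons with untreated mice share their 5 controls.

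Within a library, the ratio of 2 genes' counts does not depend on the scaling. The ratio of Alox5 to Alox12 counts had a mean of 0.116 ± 0.0478 (SD, n = 5) in the early ND group. In the late ND group it was 0.307 ± 0.101 (SD, n = 5), with 0.181 ± 0.0576 (SD, n = 5) among untreated mice. It lay at 0.0823 to 0.200 after early ND and at 0.217 to 0.443 after late ND, so these groups did not overlap, while untreated mice, at 0.108 to 0.260, spanned the gap between them. Alox5ap to Alox12 behaved alike, with 0.637 to 1.36 after early ND, 1.40 to 2.64 after late ND and 0.907 to 1.71 in untreated mice.

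Of the 36 pairs of the 9 members, 4 separated late from early ND, namely Alox5 and Alox5ap, each over Alox12 and over Tbxas1, and 0 separated either ND group from untreated mice. Taking all 13314 other genes tested over Alox12, 15.6% had ratios that did not overlap between late and early ND. No share over all genes was computed for ratios to Tbxas1, for the 36 pairs as a set or for the comparisons with untreated mice. The ratios were examined after the values were seen and carry no test. The mean log2 ratio of Alox5 to Alox12 was 1.42 higher after late than after early ND, and 1.36 higher without the libraries poor in 18S sequence.

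**Figure D3:**
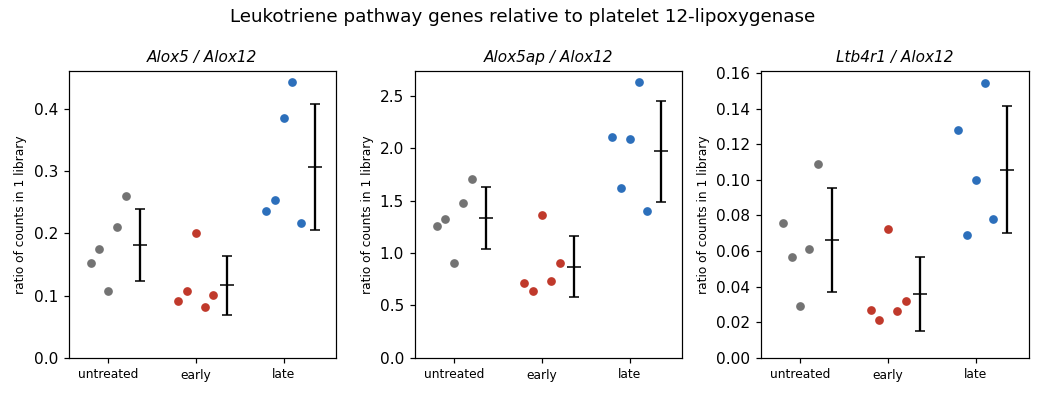
Ratio of the counts of Alox5, Alox5ap and Ltb4r1 to those of Alox12 in the same library (vertical axes, from 0), 1 point per mouse, with the group mean and SD. The late ND mice lie at 0.217 to 0.443 for Alox5 and 1.40 to 2.64 for Alox5ap, above all early ND mice, and the Ltb4r1 ratios of the groups overlap.

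The members' profiles over the 15 libraries were compared with one another and with the marker lists. Each profile was log2 CPM minus its mean, and likeness was the root-mean-square (RMS) difference between profiles, so smaller is more alike. Alox12 lay 0.062 from the mean of the 8 platelet markers (such as Pf4, Itga2b and Gp9), and Tbxas1 0.151 from it. A flat profile lay 0.331 from Alox12 and 0.259 from Tbxas1. Ptgs1 also had the platelet list as its nearest, at 0.234, but a flat profile was hardly farther, at 0.267. Alox5, Alox5ap and Ltb4r1 had the neutrophil list (such as S100a8, Csf3r and Cxcr2) as their nearest, at 0.368, 0.323 and 0.275. A flat profile lay 0.559 from Alox5, 0.491 from Alox5ap and 0.742 from Ltb4r1. Lta4h was nearer to a flat profile (0.240) than to any list, the closest of which was the T cell list (0.363). Hpgds lay about equally near the basophil and mast cell list (0.486) and the B cell list (0.488), and Ptgs2 was nearest the monocyte list (0.786, against 0.863 for a flat profile), both from few counts. Because the profiles share libraries and scaling, these are descriptions and carry no test.

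Among the members, the closest profiles were those of Alox12 and Tbxas1 (0.165), Ptgs1 and Tbxas1 (0.215), Alox12 and Ptgs1 (0.222) and Alox5 and Alox5ap (0.230), whereas Alox5 and Alox12 lay 0.719 apart. Of the 9491 other genes with a mean of at least 5 CPM, the nearest to Alox12 were Csrp1 (0.105), Clic4 (0.107) and Pttg1ip (0.109), and the nearest to Tbxas1 were Fermt3, Tpm4 and Ilk (each 0.13). Nearest to Alox5 were S100a11 (0.102), Selplg (0.129) and Ggt5 (0.151), the last an enzyme that cleaves leukotriene C4. Alox5ap was nearest to Gm19719 (0.0946), its opposite-strand neighbor, then Glipr2 and R3hdm4, and Ltb4r1 to Atxn10, App and G6pdx (0.205 to 0.226). The nearest genes to Ptgs1 were Ptpn11, Aldh2 and Fam13b, and to Lta4h Prrc1, Trappc11 and Ankhd1.

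**Figure D4:**
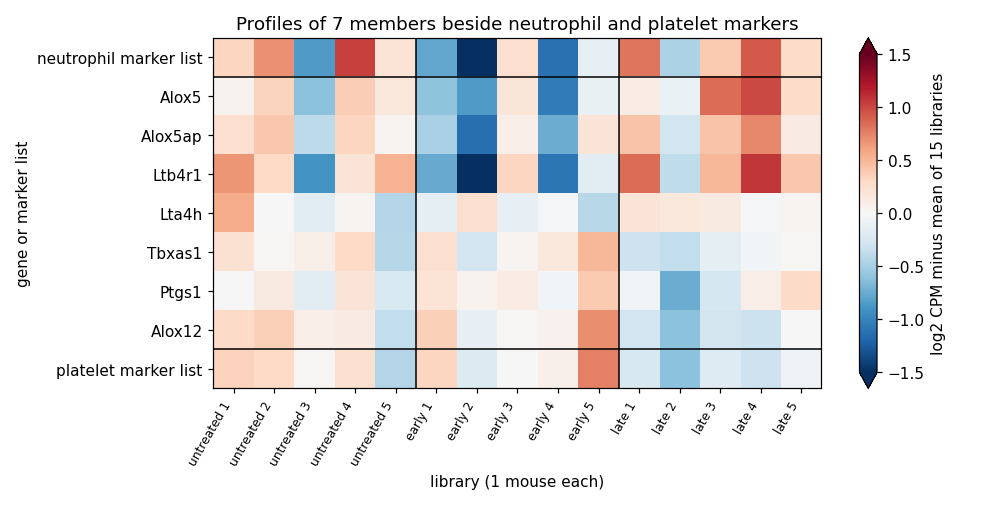
Log2 CPM minus its mean over 15 libraries (color scale, cut at 1.5 in either direction) for 7 members and for the means of the neutrophil and platelet marker lists (rows), by library (columns, 1 mouse each, black lines between groups). Alox5, Alox5ap and Ltb4r1 are low in early ND mice 1, 2 and 4 and in untreated mouse 3, as is the neutrophil row. Alox12 is 0.062 RMS from the platelet row.

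The neutrophil list moved in the direction of Alox5, Alox5ap and Ltb4r1, and the platelet list in that of Alox12, Tbxas1 and Ptgs1. Between late and early ND, 1 of the 8 neutrophil markers was called higher, beside 2.50% of all genes. At an unadjusted p under 0.05, 7 were higher, beside 14.4% of all genes, and the median log2 fold change was 1.14. Their summed level was 2303 to 7269 CPM after early ND, 5599 to 14907 after late ND and 4434 to 11555 in untreated mice. For platelets, 1 of the 8 markers was called lower, beside 2.48% of all genes, with summed levels of 1863 to 3783, 1532 to 2154 and 1818 to 2936 CPM. At an unadjusted p under 0.05, 4 were lower, beside 9.33% of all genes (median -0.45 under TMM). Medians of the other lists under TMM were 0.35 for monocytes (7 genes tested) and 0.69 for skin (3 of 8 tested). They were -0.33 for B cells (6 tested), -0.27 for T cells (6 tested) and -0.19 for NK cells (4 tested). For basophils and mast cells the median was -0.45 (4 of 7 tested), and for eosinophils -0.48 (3 of 5 tested). No neutrophil or platelet marker was at 0 in all libraries of a group. Of the 7 erythroid markers found, 4 were called lower, beside 2.48% of all genes (median -2.38 under TMM). The hemoglobin share did not overlap between the ND groups, and with it as a covariate edgeR called 0 genes in all, higher or lower (578 higher and 494 lower at an unadjusted p under 0.05). In that fit the log2 fold changes were 0.57 for Alox5, 0.60 for Alox5ap, 1.04 for Ltb4r1 and -0.65 for Alox12 under TMM. The part of cell composition in the member differences was not tested.

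Beyond the members, a list of 43 other genes of eicosanoid synthesis, transport, breakdown and sensing had 41 matched, of which 26 were tested between late and early ND. Among them 2 were called higher, beside 2.50% of all genes, and 0 lower, beside 2.48%. Groups that did not overlap were found for 2 of the 26, beside 5.91% of all genes. At an unadjusted p under 0.05, 9 of the 26 were higher, beside 14.4% of all genes, and 3 were lower, beside 9.33%. The median log2 fold change was 0.01, as over all genes. Cysltr1, a receptor for cysteinyl leukotrienes, had 1.91, 3.15, 2.74, 2.53 and 5.02 CPM after early ND and 8.98, 6.61, 5.26, 8.42 and 7.45 after late ND. In untreated mice it had 2.41, 2.09, 2.59, 3.72 and 2.42 CPM, so every late ND mouse was above every other mouse. Cysltr1 was 2.45-fold higher after late than after early ND (log2 1.29 ± 0.25 SE, edgeR adjusted p = 0.0194) and 2.78-fold higher than in untreated mice (log2 1.47 ± 0.22 SE, edgeR adjusted p = 0.0242). Without the libraries poor in 18S sequence the log2 values were 1.45 and 1.53 with adjusted p-values of 0.0510 and 0.104, and the call against early ND was also lost without early ND mouse 4 or late ND mouse 4 (0.0552 and 0.0524). The call against untreated mice was lost without untreated mouse 3 or any late ND mouse except mouse 3, with adjusted p-values of up to 0.0712 (edgeR). The calls over all genes fell too. From 406 against untreated mice, edgeR called 0 or 1 in those fits and 0 without the libraries poor in 18S sequence. From 663 against early ND, it called 4 without those libraries, 151 without early ND mouse 4 and 198 without late ND mouse 4.

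Among the 7 monocyte markers, 1 was called higher after late ND against early ND, beside 2.50% of all genes. Against untreated mice 2 were called higher, beside 0.989%. Their summed levels were 860 to 1341 CPM after late ND, 513 to 1172 after early ND and 501 to 890 in untreated mice, so that the ranges overlapped, and all 7 were detected in each group. Their part in the Cysltr1 difference was not tested.

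Cysltr2, the other cysteinyl leukotriene receptor, went the opposite way against untreated mice. It had 14.9, 17.95, 16.7, 15.7 and 12.1 CPM in untreated mice, 17.1, 8.78, 11.4, 11.2 and 18.1 after early ND and 7.99, 7.82, 9.64, 10.7 and 10.4 after late ND. Every late ND mouse was below every untreated mouse, while the early ND mice overlapped both groups. The log2 fold change, late ND against untreated, was -0.74 ± 0.14 (SE) under TMM (edgeR adjusted p = 0.0242) and 0.16 with library totals, or -0.75 relative to the shift of all genes. The call was lost without the libraries poor in 18S sequence (-0.62, edgeR adjusted p = 0.180), and also without untreated mouse 3 or any 1 late ND mouse, where adjusted p-values ran from 0.0527 to 0.0712. Over all genes, edgeR called 0 without those libraries and 0 to 9 with 1 of those mice left out.

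Ptges2, named as a prostaglandin E synthase, had 4.08, 3.31, 5.20, 2.53 and 2.40 CPM after early ND and 5.63, 6.09, 6.74, 8.79 and 6.82 after late ND. The untreated mice had 4.32 to 7.64 CPM. It was 1.90-fold higher after late than after early ND, without overlap (log2 0.93 ± 0.22 SE, edgeR adjusted p = 0.0360). The call was lost without the libraries poor in 18S sequence (0.0804) and when any single ND mouse other than early ND mouse 3 or late ND mouse 2 was left out (edgeR adjusted p up to 0.108). Over all genes, edgeR called 4 without those libraries and 145 to 561 with 1 of those mice left out. With the hemoglobin share as a covariate, the log2 fold change was 0.48 for Ptges2 (edgeR adjusted p = 0.741) and 1.87 for Cysltr1 (0.482). That share did not overlap between the ND groups and the fit called 0 genes in all, so a call lost there does not bear on a single gene. With the next smallest p, Fpr2, a formyl peptide receptor that also binds lipid mediators, had a log2 fold change of 1.15 ± 0.31 (SE) and an adjusted p of 0.0529 (edgeR).

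**Figure D5:**
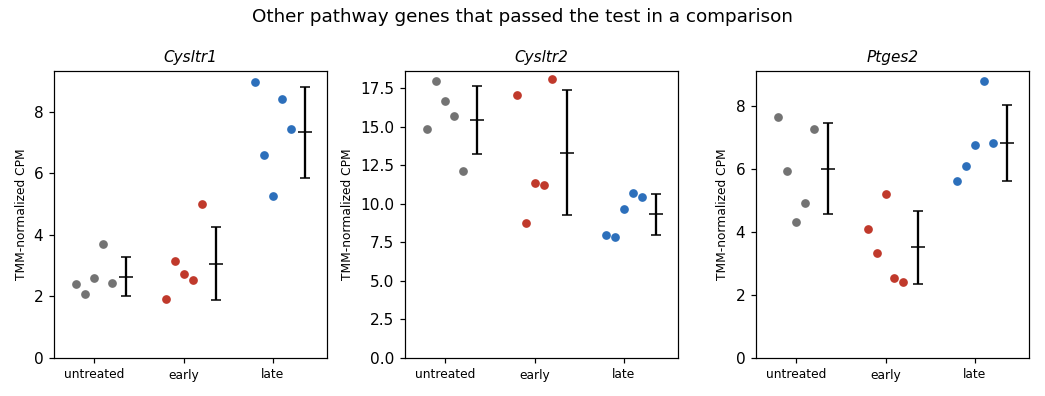
TMM-normalized CPM (vertical axes, from 0) of Cysltr1, Cysltr2 and Ptges2 in untreated, early ND and late ND blood, 1 point per mouse, with the group mean and SD. The late ND mice lie at 5.26 to 8.98 CPM for Cysltr1, above all other mice, and at 7.82 to 10.7 for Cysltr2, below all untreated mice under TMM scaling, a direction that turns with library totals.

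Of the 25 genes of this list tested between late ND and untreated mice, Cysltr1 was called higher, beside 0.989% of all genes. Cysltr2 was called lower, beside 2.01%. Among the 25, 4 had groups that did not overlap, beside 5.48% of all genes. At an unadjusted p under 0.05, 6 of the 25 were higher, beside 8.69% of all genes, and 3 were lower, beside 8.28%. Mgst3, a microsomal glutathione transferase with the next smallest p, was below every untreated mouse in all 5 late ND mice and did not pass with edgeR (log2 -1.30 ± 0.35 SE under TMM, adjusted p = 0.0681) but did with DESeq2 (log2 -1.33, adjusted p = 0.00579). Between early ND and untreated mice 0 of 23 were called, beside 0.00% of all genes in either direction. None of the 23 had groups that did not overlap, beside 0.576% of all genes. At an unadjusted p under 0.05, 0 of the 23 were higher, beside 2.11% of all genes, and 4 were lower, beside 2.33%. The smallest p-values were those of Ggt1, a gamma-glutamyl transferase that cleaves leukotriene C4 (log2 -1.50 ± 0.36 SE), Fpr2 (-0.91 ± 0.31 SE) and Ptges2 (-0.72 ± 0.26 SE), each with an adjusted p of 0.938 (edgeR).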

How the data were processed

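Whole blood RNA libraries of 15 mice (cheek bleeds, TRIzol and column extraction, paired-end reads) were analysed from the counts the authors deposited, which HTSeq 0.13.5 made per gene after alignment with STAR 2.7.9 to GRCm39 and name sorting with SAMtools 1.7. The counts were not normalized, and the strand setting and annotation release are not given in the sources used here. Multi-mapped reads and the other HTSeq counters, 75.6% to 88.1% of each table, were left out. Symbols and coordinates came from GENCODE on GRCm39 for 54749 of 55416 identifiers. Groups came from the sample titles. Each pair of groups was fitted alone with edgeR 4.0.16 in R 4.3.3 (filterByExpr, TMM, glmQLFit and glmQLFTest, Benjamini-Hochberg over all genes tested, threshold 0.05). The standard error was the log2 fold change over the root of F. Log2 CPM used a prior count of 2. DESeq2 1.42.0 was an alternative, as the authors used it. Late ND libraries were deeper, so their low counts are more precise. The fit was tested on simulated data, where it recovered 192 of 200 genes changed by 2 on the log2 scale among 13315 for late against early ND, with 5 false calls.

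All 10 members are named. Of the wider list, genes past the threshold and the 3 smallest p-values per comparison are named, and of like profiles the 3 nearest genes. The result for 1 gene of the wider list is not reported here. The members and lists were chosen with earlier results of these data known. Each replicate is 1 mouse by the labels. Replicate numbers were not taken to pair the samples, since not every same-numbered pair deviated together.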

Additional observations from a re-analysis of the deposited data

Results flagged for a closer look

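Of 30 groups of 5 libraries (10 members in 3 groups), 2 had a mouse far from the other 4 by Dixon's ratio (above 0.71), and chance alone gives such a mouse in about 1 of 20 groups. Both concern Ltc4s. Untreated mouse 4 had 0.676 CPM from 4 counts (ratio 0.762), and early ND mouse 3 had 0.958 CPM from 7 counts (ratio 0.827).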

How the results depend on the processing

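The number of members called between late and early ND was 0 (4.98% of all genes called). It was 5 of 9 with library totals in place of TMM (68.0%), 3 with DESeq2 (10.8%) and 2 without a filter on low counts (4.47%). With the replicate number as a block it was 1 (Alox5, edgeR adjusted p = 0.0487), beside 5.05% of all genes. With 1 mouse left out it was 0 to 2, beside 1.09% to 11.8% of all genes. Against untreated mice, late ND had 4 of 8 members called with library totals (55.9% of all genes) and 0 otherwise (0.00% to 5.96%). Deviations of same-numbered mice correlated at -0.18 to 0.46 between the ND groups, at 0.029 to 0.58 between late ND and untreated mice (4 of 5 pairs above 0.1) and at -0.24 to 0.080 between early ND and untreated mice, so the numbers were not taken as pairs. The block changed no other member's call, though Ptges2 lost its own (edgeR adjusted p = 0.0587) and Mgst3 gained one against untreated mice (edgeR adjusted p = 0.0498).

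Library totals turned the log2 fold changes of late against early ND to 0.36 for Alox12, 0.59 for Ptgs1, 0.57 for Tbxas1, 0.12 for Hpgds and 0.33 for Cysltr2, and those against untreated mice to 0.51, 0.78, 0.73, 0.51 and 0.16 for the same genes and 0.49 for Ggt1, all below the shift of all genes. They turned Mgst3 to 0.051 for early ND against untreated mice. For late ND against untreated mice, Ptgs1 turned to 0.16 and Ggt1 to 0.16 without the libraries poor in 18S sequence, and a fit with hemoglobin share as covariate turned Ggt1 to 0.28 and Fpr2 to -0.076. With 1 mouse left out, the late ND values against untreated mice ran from -0.010 to 0.23 for Lta4h and from -0.23 to 0.025 for Ptgs1. Those of early ND ran from -0.20 to 0.039 for Lta4h, from -0.039 to 0.18 for Alox12, from -0.013 to 0.18 for Tbxas1, from -0.038 to 0.37 for Cysltr1 and from -0.54 to 0.26 for Mgst3.

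The alternatives for the other pathway genes and the ratio were added after seeing the data. Shares of all genes called are given in brackets. The 2 other pathway genes called between late and early ND (4.98%) became 19 with library totals (68.0%), 6 with DESeq2 (10.8%) and 5 without a filter (4.47%). They became 1 with at least 10 counts in every library (7.10%). The number was 0 without the libraries poor in 18S sequence (0.0298%) and 0 with the hemoglobin covariate (0.00%). With 1 mouse left out it ran from 0 to 7 (1.09% to 11.8%). The 2 called against untreated mice became 15 with library totals (55.9%), 5 with DESeq2 (5.96%) and 1 with the filter of 10 counts (4.59%). They became 0 without the libraries poor in 18S sequence (0.00%) and 0 with the covariate (0.00%). With 1 mouse left out the number ran from 0 to 2 (0.00% to 4.22%). Over all genes, the 663 called between late and early ND became 1439 with DESeq2, 9060 with library totals and 0 with the covariate, and the 406 against untreated mice became 808, 7574 and 0. Beyond the settings named, the cause of these changes was not tested. Low counts limit Ltc4s, Ptgs2 and Hpgds.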
